A study of Rattus norvegicus with 15 samples.

Results

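Enamel organ of the maturation stage was compared with enamel organ of the secretory stage on 10 of the 15 arrays of the series, the 5 of each stage, chosen by the tissue label of each array. The other 5 arrays held the cervical loop, the growing end of the tooth. They entered the estimate of the spread between arrays and the choice of the features tested. Their values are given as context where they are named. Every sample was total RNA from the mandibular incisor of 4-week-old Wistar Hannover rats, the series design names 5 rats, and no treatment, transgene or mutant allele is named for any group. Each RNA was labelled with Cy3 and read on its own one-colour array of probes for long non-coding RNA. The titles number the samples 1 to 5 within a stage and call them biological replicates, but no label ties a number to a rat, so p-values measure the spread between these samples.

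The title of 8 of the 10 arrays named the opposite stage, for replicates 2 to 5 of both, whereas tissue label, source name and description agreed on all of them. The arrays grouped by tissue label: correlations over all probes ran from 0.985 to 0.991 within the secretory stage, from 0.987 to 0.993 within the maturation stage and from 0.954 to 0.966 across them. Of the 11 marker genes fixed for ameloblasts and the 11 and 17 genes listed for matrix secretion and for maturation, 0 were named on the array, so that the tissue could not be checked against its defining markers and the direction of every difference rests on the labels. The lists for dental mesenchyme, blood vessel and blood, immune cells and muscle also had 0 named genes; in the nerve list Map2 was the only one, well above background on 0 of the 10 arrays. Fewer cells of a type and less RNA per cell cannot be told apart in these bulk samples.

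Enamel is made by ameloblasts, the inner cells of the enamel organ. During secretion they are tall cells that export the proteins of the enamel matrix and set the thickness of the layer. In maturation they become transporting cells: they alternate between ruffle-ended and smooth-ended forms, take up the degraded matrix, move calcium, phosphate and bicarbonate, and the crystals thicken until the tissue is almost free of protein. Long non-coding RNAs are transcripts that are not translated, and some of them act on chromatin or on other RNAs. Ultraconserved elements are genome segments with perfect identity among several mammals, many of which are transcribed.

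An array carried 38321 probes other than controls: 37277 with only an identifier of the array maker, 962 for both strands of 481 ultraconserved elements, 39 for 38 RefSeq genes, 23 with an accession that matched no RefSeq gene and 20 custom probes. The share of spots well above background ran from 67.4% to 78.9% over the arrays, whose number limits how precise each value is. A feature was tested where its probe was well above background on all 5 arrays of any stage, the cervical loop included. That gave 28863 features, 24654 of them well above background on all 10 arrays. The same filter on the stages compared alone left 27062, without Cyp2e1 and Map2. Levels are given as normalized log2 signal, the log2 of the processed signal minus the 75th percentile of its array, in the order of replicates 1 to 5; a difference is maturation minus secretory, and a difference of 1 is 2-fold. Scan 1 held maturation replicates 1 to 4, scan 2 held maturation replicate 5 with secretory replicates 1 to 3, and scan 3 held secretory replicates 4 and 5. Any estimate with the scan as a block is therefore the difference between maturation replicate 5 and those 3 secretory arrays.

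Most named genes were higher in maturation. Of 37 RefSeq genes tested, 24 rose from secretion to maturation, 2 were lower, and 11 missed the threshold (limma, adjusted p under 0.05 over all features); over all 28863 features, 59.5% passed it, 25.1% as higher and 34.4% as lower. The median difference was 0.45 for the RefSeq genes against -0.12 for all features. However, 20 of the 37 genes lay in the brightest of 5 equal bins of mean level. In that bin the median was 0.54 for the genes and 0.12 for all features, of which 2021 of 5773 were called higher. By processed signal 9 RefSeq genes differed at least 2-fold, all of them higher. Over all features, 10.1% were higher and 12.4% lower by as much. For Nlrp3, which is one of the 9, the bound set by background was 1.37-fold by processed signal, and normexp correction gave a difference of -0.17. The ranges of both stages did not overlap for 21 genes (56.757%; 45.8% of all features). The genes that can be named are those the array maker chose to include, and they stand for no other genes.

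**Figure D1:**
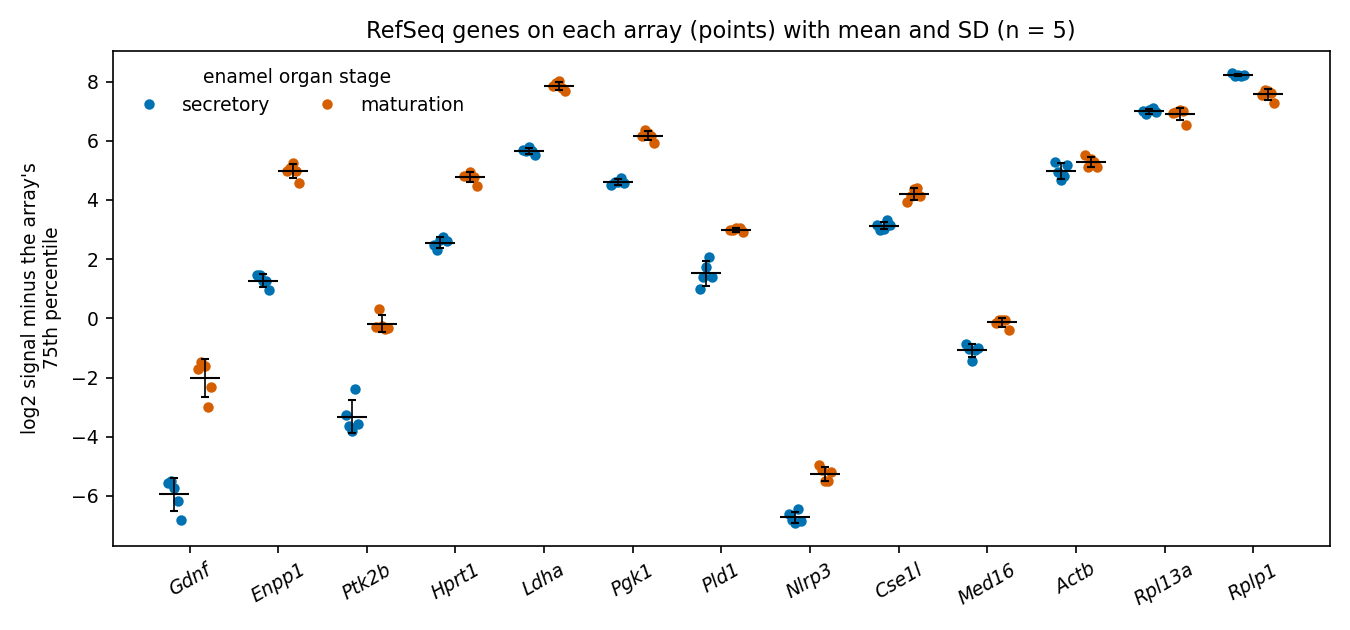
Normalized log2 signal (vertical axis) of 13 RefSeq genes on each of the 5 secretory and 5 maturation arrays, as points, with the mean and the SD (bars). Enpp1 lay between 4.58 and 5.26 on the maturation arrays and between 0.95 and 1.46 on the secretory arrays; the ranges of Actb and Rpl13a overlapped, and Rplp1 was lower on every maturation array. Levels of different genes come from different probes and are not to be compared.

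Enpp1 gave the smallest p-value among the named genes. It encodes a membrane enzyme that releases pyrophosphate outside the cell, and pyrophosphate is a known inhibitor of mineral deposition. The secretory arrays read 1.46, 1.45, 1.25, 1.27 and 0.95, and the maturation arrays 4.99, 5.08, 5.26, 4.97 and 4.58. Every maturation array stood above every secretory array, and replicate 5 was the lowest of both stages. The difference was 3.70, or 13.0-fold (SE 0.15, 95% interval 3.39 to 4.01, adjusted p = 5.42e-11), and it was 3.20 with the scan as a block, where the call held. In the cervical loop the mean was 2.17 ± 0.20 (SD, n = 5). Enpp1 was the only gene named on the array from the 7 listed for pyrophosphate and phosphate handling.

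Both glycolytic genes that could be named rose, of 17 listed, where 24 of the 37 RefSeq genes and 25.1% of all features were higher. Ldha encodes the lactate dehydrogenase subunit that favours making lactate from pyruvate, and Pgk1 encodes phosphoglycerate kinase, which makes ATP in glycolysis. Ldha read 5.69, 5.66, 5.78, 5.67 and 5.51 on the secretory arrays and 7.85, 7.95, 8.01, 7.78 and 7.69 on the maturation arrays. Neither group spread over more than a small part of the distance between them, which was 2.20, or 4.59-fold (SE 0.11, adjusted p = 4.3e-10). The other Ldha probe, dimmer and tested apart, differed by 2.52 (SE 0.12), with secretory arrays from 2.68 to 3.29 and maturation arrays from 5.31 to 5.63. Pgk1 read 4.49, 4.62, 4.59, 4.74 and 4.57 in secretion and 6.15, 6.36, 6.26, 6.17 and 5.92 in maturation. Its stages were apart on all arrays, with a difference of 1.57 or 2.97-fold (SE 0.12, adjusted p = 3.59e-08). With the scan as a block the differences were 1.98 for Ldha and 1.35 for Pgk1, and both calls held. Cervical loop arrays had means of 6.55 ± 0.16 for Ldha and 5.10 ± 0.20 for Pgk1 (SD, n = 5), between the other stages in both cases.

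The promoter of Ldha is shown because hypoxia-inducible factors, which bind around the letters ACGTG, are textbook regulators of glycolytic genes. RefSeq promoters were available by symbol for 27 of the 37 genes (assembly GRCr8). Only those of Ldha, Gdnf and Rplp1 were looked at, and none was available for Pgk1, Enpp1 and Ptk2b. The 250 bases before the gene start of Ldha lie at chr1:106507842-106508091 on the + strand and those of Gdnf, whose processed signal differed most, at chr2:58621077-58621326 on the + strand. Capitals mark ACGTG on either strand (CACGT on the strand shown).
Ldha: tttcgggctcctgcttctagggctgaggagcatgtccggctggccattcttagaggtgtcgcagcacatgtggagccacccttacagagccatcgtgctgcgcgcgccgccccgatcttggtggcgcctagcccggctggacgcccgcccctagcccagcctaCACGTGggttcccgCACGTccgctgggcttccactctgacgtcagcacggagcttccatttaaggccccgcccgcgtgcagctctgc
Gdnf: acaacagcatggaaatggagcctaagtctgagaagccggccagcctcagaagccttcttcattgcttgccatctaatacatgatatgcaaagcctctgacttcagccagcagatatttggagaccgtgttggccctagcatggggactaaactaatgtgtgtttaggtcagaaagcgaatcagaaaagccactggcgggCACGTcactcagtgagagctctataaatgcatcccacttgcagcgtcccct
The Ldha stretch held 3 matches, with first bases at -87, -86 and -73 from the gene start, of which the first overlapping pair forms the palindrome CACGTG. The Gdnf stretch held 1, at -51, and the same window of Rplp1, looked at as a gene that fell, held 0 of either motif. Over 33469 promoters of the same length, 16.57% held ACGTG on either strand and 5.59% held CACGTG. A match of letters is a description and not evidence of binding.

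Of 7 genes listed for purine salvage and other metabolism 4 were tested. Hprt1 and Sdha rose and Gusb did not pass, where 25.1% of all features were higher and 34.4% lower. Cyp2e1, described further on, was lower only as a processed signal, with 0 secretory arrays and 1 maturation array well above background. Hprt1, whose enzyme salvages hypoxanthine and guanine, read 2.47, 2.31, 2.65, 2.75 and 2.62 in secretion and 4.80, 4.81, 4.95, 4.79 and 4.48 in maturation. The stages were well apart, by 2.20 or 4.61-fold (SE 0.12, adjusted p = 7.87e-10; 2.00 with the scan as a block). Slc28a2, outside that list, which encodes a transporter of purine nucleosides into cells, rose from 0.45 ± 0.19 to 1.33 ± 0.18 (SD, n = 5 each; adjusted p = 0.0138). Its secretory arrays ran from 0.23 to 0.75 and its maturation arrays from 1.22 to 1.64. Sdha, a subunit of succinate dehydrogenase in the respiratory chain, differed by 0.41 with overlapping ranges (4.32 to 4.98 and 4.87 to 5.23), close to the threshold (adjusted p = 0.049). That call was lost with quantile normalization (0.29) and with the scan as a block (0.24). Gusb, a lysosomal enzyme gene, differed by -0.33 (95% interval -0.87 to 0.20) and did not pass. Pdk3, also outside it, a kinase that restrains pyruvate dehydrogenase, rose by 0.40 (adjusted p = 0.0368), and its ranges overlapped.

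Both signalling enzymes on the array, of 10 listed, rose, as did 24 of the 37 RefSeq genes and 25.1% of all features. Ptk2b encodes Pyk2, a tyrosine kinase that responds to calcium and to integrins. The secretory arrays of Ptk2b read -3.26, -3.64, -3.79, -2.37 and -3.55, and the maturation arrays -0.31, 0.33, -0.27, -0.36 and -0.32. Replicate 4 was the highest of the secretory arrays and still lay far below every maturation array. The difference was 3.14, or 8.80-fold (SE 0.28, adjusted p = 1.86e-07; 3.24 with the scan as a block). Pld1 encodes phospholipase D1, which makes phosphatidic acid on vesicle membranes. Pld1 read 0.98, 1.39, 1.74, 2.07 and 1.41 in secretion and 2.98, 2.97, 3.06, 3.06 and 2.91 in maturation. Maturation arrays were nearly level (SD 0.06, n = 5) while secretory arrays varied more (SD 0.41, n = 5), and the difference was 1.48 (SE 0.19, adjusted p = 1.13e-05). Outside that list, Napepld, whose enzyme makes anandamide-type lipids, rose by 0.57 from -4.71 ± 0.17 to -4.14 ± 0.23 (SD, n = 5 each), but with normexp background correction its difference was -0.14. Ppp2r2b, a regulatory subunit of protein phosphatase, differed by 0.25 (95% interval -0.07 to 0.56), and P2rx2, an ATP-gated channel, by 0.30 (-0.30 to 0.90), neither past the threshold.

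Of the listed growth factors and receptors, Gdnf and Fgf2 were tested and both rose (24 of the 37 RefSeq genes and 25.1% of all features). Gdnf encodes glial cell line-derived neurotrophic factor, a ligand of the receptor Ret with its co-receptor Gfra1. Its secretory arrays read -5.55, -5.49, -5.73, -6.17 and -6.80, and its maturation arrays -1.71, -1.47, -1.62, -2.99 and -2.31. All 5 maturation arrays but only 2 of the 5 secretory arrays were well above background, and the groups were far apart. The difference of 3.93 (SE 0.34, adjusted p = 1.4e-07; 3.28 with the scan as a block) was the largest among the RefSeq genes by processed signal. With normexp background correction it was 1.09, behind Enpp1 (3.66), Ldha (2.27), Hprt1 (2.22), Ptk2b (1.96), Pgk1 (1.61), Pld1 (1.48) and Cse1l (1.11). Fgf2, a fibroblast growth factor stored in the extracellular matrix, read -4.70 to -4.50 in secretion and -4.38 to -3.92 in maturation, a difference of 0.45 (SE 0.16, adjusted p = 0.0226) that turned to -0.14 with normexp correction. The call for Fgf2 was lost without maturation replicate 4 (0.39). Lhcgr, the receptor of luteinizing hormone, was well above background on 0 of the 15 arrays and was not tested. Ret and Gfra1 were not named on the array.

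Nlrp3, the sensor of an inflammasome, was measured above background on all 5 maturation arrays and on none, 0 of 5, in secretion. The maturation arrays read -4.96, -5.13, -5.51, -5.49 and -5.20, against -6.62, -6.80, -6.91, -6.44 and -6.86 in secretion. Processed signals did not overlap, and by processed signal Nlrp3 was at least 1.37-fold higher in maturation (limma, adjusted p = 2.17e-05). Its measured means were -5.26 ± 0.24 in maturation and -6.72 ± 0.19 in secretion (SD, n = 5 each), while normexp correction gave a difference of -0.17. Such a bound sets the mean of the brighter stage against the dimmer arrays. Each dimmer array counts at the probe's own signal or at the lowest signal that is well above background, whichever is higher. The bound is one on the processed signal only and does not hold for other background corrections.

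Of the 4 genes listed for transcription, Med16 was the only one on the array, and it is given here with Cse1l, Magoh, Pop7 and Mex3c, which are in no list. Cse1l encodes the exportin that returns importin alpha to the cytoplasm; it read 3.15, 2.99, 3.03, 3.31 and 3.14 in secretion and 3.93, 4.15, 4.36, 4.41 and 4.12 in maturation. The stages did not overlap, and the difference was 1.07 (SE 0.14, adjusted p = 1.25e-05). Med16, a subunit of the Mediator complex that links transcription factors to RNA polymerase, rose by 0.94 from -1.08 ± 0.22 to -0.14 ± 0.15 (SD, n = 5 each; adjusted p = 5.97e-05). Its secretory arrays ran from -1.44 to -0.86 and its maturation arrays from -0.39 to -0.05. Magoh, a core protein of the exon junction complex, rose by 0.36, and Pop7, a protein subunit of RNase P, by 0.40. The ranges of both genes were apart, but maturation replicate 5 of Pop7, at 2.73, came within reach of the secretory arrays (2.62 to 2.70), and with the scan as a block its difference was 0.06. Mex3c, an RNA-binding ubiquitin ligase, differed by 0.19 (95% interval -0.10 to 0.49) and did not pass.

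In translation, 1 of 3 genes fell and 2 did not pass the threshold, where 2 of the 37 RefSeq genes and 34.4% of all features were lower. Rplp1 encodes an acidic protein of the ribosomal stalk. Its secretory arrays read 8.28, 8.18, 8.21, 8.20 and 8.23, and its maturation arrays 7.55, 7.70, 7.68, 7.63 and 7.27. All maturation arrays were lower, replicate 5 the lowest, and the difference was -0.66 (SE 0.12, adjusted p = 0.000256; -0.96 with the scan as a block). Rpl13a, a protein of the large ribosomal subunit, differed by -0.10 (95% interval -0.41 to 0.21), and Eif4b, an initiation factor that aids the helicase unwinding mRNA, by -0.20 (-0.51 to 0.11); under median scaling these came to 0.12 and 0.02.

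Genes of ubiquitin ligases and their adaptors were followed next, with 2 of 3 higher (24 of the 37 RefSeq genes and 25.1% of all features). Ndfip2 recruits Nedd4-family ligases to membranes; its secretory arrays ran from 2.67 to 3.38 and its maturation arrays from 3.48 to 3.75, and it rose by 0.55 (SE 0.14, adjusted p = 0.00355). Its relative Ndfip1 differed by -0.06 (95% interval -0.34 to 0.22) and did not pass. Trim2, a ligase of the tripartite motif family, rose by 0.75 from 2.74 ± 0.27 to 3.50 ± 0.14 (SD, n = 5 each; adjusted p = 0.00287). The difference between Ndfip1 and Ndfip2 was not tested as such.

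Adhesion and cytoskeleton genes gave 1 increase in 4, where 25.1% of all features were higher. Cdh2 encodes N-cadherin, which joins neighbouring cells through calcium; it read 2.80, 2.83, 3.56, 3.49 and 3.32 in secretion and 3.87, 3.67, 3.73, 3.78 and 3.79 in maturation. The secretory arrays fell into a lower pair, replicates 1 and 2, and a higher trio just under the maturation arrays. The difference was 0.57 (SE 0.19, adjusted p = 0.0192), and the call was lost without secretory replicate 1 (0.47) or replicate 2 (0.48). Pdcd10, outside the list, an adaptor known from endothelial junctions and vesicle traffic, rose by 0.91 (SE 0.14, adjusted p = 4.43e-05), with secretory arrays from 2.05 to 2.57 and maturation arrays from 3.08 to 3.57. Actb, for beta-actin, differed by 0.31 (95% interval -0.01 to 0.63) and Dlg4, for the scaffold PSD-95, by 0.08 (-0.20 to 0.36). Map2, a microtubule protein, was well above background on 0 arrays of either stage and gets no fold.

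Several of these genes are in common use as references for expression. Of the 9 tested from a list of 18, 5 rose (Ldha, Hprt1, Pgk1, B2m and Sdha) and Rplp1 fell. Actb, Gusb and Rpl13a did not pass, though under median scaling Actb differed by 0.53 and passed. Among all 37 RefSeq genes tested 24 rose and 2 were lower, and of all features 25.1% were higher and 34.4% lower. B2m, the light chain of class I histocompatibility molecules, rose by 0.53 (adjusted p = 0.0327), a call that was lost with the replicate block, with the scan as a block (0.23) and with quantile normalization (0.47). Among the remaining genes, Hsp90ab1, a cytosolic chaperone, rose by 0.35 (adjusted p = 0.0429) with overlapping ranges and lost its call with quantile normalization (0.22). Odf2l, a centrosomal protein gene, rose by 0.47 (adjusted p = 0.0432) and lost its call with the replicate block and with the scan as a block (0.05). Nat1, an N-acetyltransferase, differed by 0.30 (95% interval 0.00 to 0.59) and did not pass. Cyp2e1, a cytochrome P450 gene, had a processed signal lower by 0.81 on the maturation arrays (adjusted p = 0.0364), but was well above background on 0 secretory arrays and 1 maturation array, and its difference within scan 2 was 0.13. Leaving out 1 array ended the calls of Sdha (7 of 10 arrays), B2m (6), Pdk3 (6), Hsp90ab1 (8), Odf2l (8) and Cyp2e1 (8), with values from 0.29 to 0.60 for the first 5.

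With the scan as a block, 10 RefSeq genes passed the threshold (20.2% of all features did), 9 as higher and 1 as lower (9.49% and 10.7% of all features). They were the 9 genes whose processed signals differed at least 2-fold, Gdnf, Enpp1, Ptk2b, Hprt1, Ldha, Pgk1, Pld1, Nlrp3 and Cse1l, and Rplp1 as the fall. All 24 genes that rose also had a positive difference within scan 2, as did 98.9% of all features called higher, and 1 of the 2 lower genes kept its sign. The arrays of scan 2 are among those that gave the calls, so these signs are no separate check. In that scan the single maturation array lends no spread of its own and that of the secretory arrays stands in for it.

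A larger increase than in any RefSeq gene was seen for probes whose accessions matched no gene of the table used for names. Of 20 such probes, 7 rose, 5 fell and 8 did not pass, where 25.1% of all features were higher and 34.4% lower. The probe with accession D63772 read -5.82, -6.24, -4.27, -2.50 and -5.13 on the secretory arrays and 1.28, 1.37, 1.46, 1.56 and 1.35 on the maturation arrays. Secretory replicate 4 was the highest of its stage, and all maturation arrays were far above it. The difference was 6.20 (SE 0.51, adjusted p = 7.31e-08), with 3 of 5 secretory arrays well above background, and it was 6.80 within scan 2 and 3.79 with normexp correction. The probe XM_340999.3 rose by 4.47, from 2.95, 3.78, 4.01, 4.81 and 3.09 to 8.07, 8.24, 8.28, 8.34 and 8.07. Here too secretory replicate 4 was the highest of its stage. Of 6 custom probes tested, 2 fell and 4 did not pass. The differences of the 2 were -0.83 and -0.84, and -0.16 and -0.15 with the scan as a block. The other 4 were well above background on all 5 arrays in the cervical loop only.

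Probes for ultraconserved elements were more often lower than higher. Of 390 probes tested for 286 elements, 206 were lower and 31 higher in maturation, and the rest did not pass. The background was 34.4% lower and 25.1% higher. With the filter on the stages compared alone, 333 probes were tested, 176 of them lower and 30 higher. Of all 27062 features tested that way, 9333 were lower and 7244 higher. The median difference of the 390 probes was -0.53, with -0.56 for the 193 probes of + strands and -0.47 for the 197 of - strands. By processed signal 67 probes were lower and 12 higher by at least 2-fold, and 40 and 3 of these were well above background on all 10 arrays. Quantile normalization put these counts at 32 lower and 14 higher, median scaling at 36 and 15, and normexp correction at 15 and 2. The ranges did not overlap for 165 probes (42.308%; 45.8% of all features), so the share that separated the stages completely was near the background.

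The level of signal went along with the direction, for these probes and for all. With all features sorted by mean level into 5 equal bins, the median difference ran from -0.39 in the dimmest bin through -0.30, -0.13 and 0.09 to 0.12 in the brightest. Calls followed, with 770 higher and 2257 lower in the dimmest bin and 2021 higher and 1360 lower in the brightest. Ultraconserved-element probes lay mostly in the dim bins, with 172, 100, 65, 33 and 20 probes, and had medians of -0.54, -0.55, -0.57, -0.39 and 0.02. They were thus lower than all features in every bin. Within scan 2 the medians of all features were -0.04, -0.10, -0.08, -0.01 and -0.11, and those of the ultraconserved-element probes -0.14, -0.27, -0.37, -0.23 and -0.04. The distance from the median to the 75th percentile of an array was 3.32 to 3.42 on the log2 scale for maturation replicates 1 to 4, 3.14 for maturation replicate 5 and 3.03 to 3.13 for the secretory arrays, so it moved with the scan as well as with the stage. Its part in the differences was not tested.

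**Figure D2:**
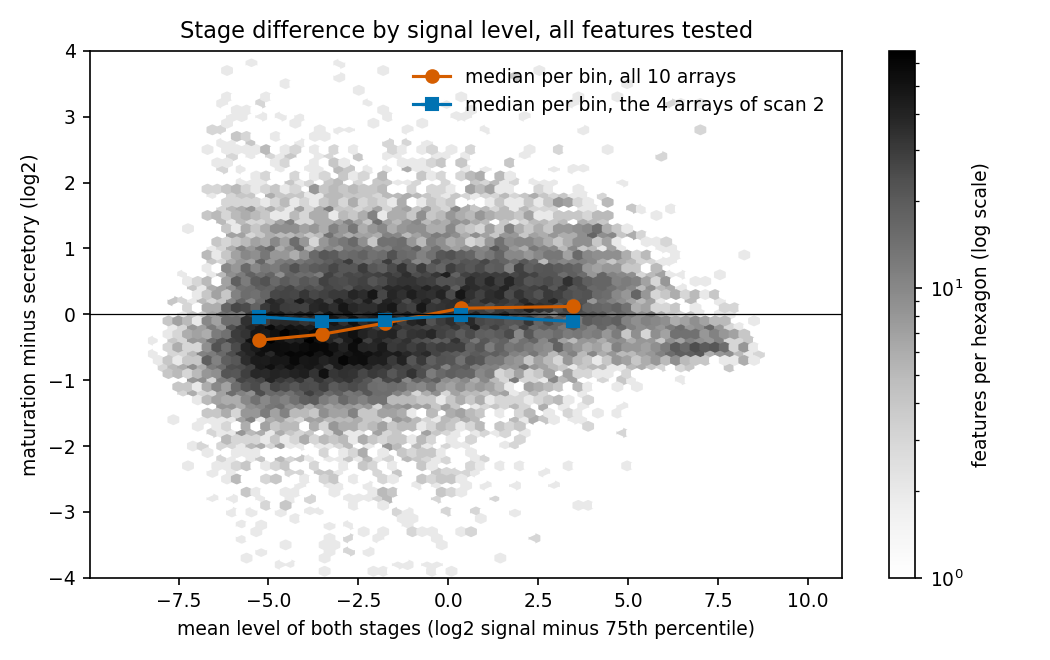
Difference between the stages (maturation minus secretory, log2) against the mean level of both (normalized log2 signal) for all 28863 features, as hexagons shaded by number on a log scale, with the median of each of 5 bins of the features for all 10 arrays (circles) and for the 4 arrays of scan 2 (squares). The medians climb from -0.39 to 0.12 with all arrays and stay between -0.11 and -0.01 within scan 2; 309 features beyond 4 in either direction lie outside the plotted range.

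The largest falls among ultraconserved-element probes were far beyond the spread. The probe uc.125- (element number and strand as on the array) read -0.10, -0.15, -0.58, 0.22 and 0.03 in secretion and -7.27, -6.69, -7.76, -7.42 and -5.83 in maturation. Only maturation replicate 5, the highest of its stage, was well above background. The difference was -6.88 (SE 0.39, adjusted p = 1.25e-09) and within scan 2, where replicate 5 is the maturation array, -5.55. The probe uc.398- read 0.82, 0.73, -0.86, 1.31 and 0.84 against -4.26, -3.88, -4.27, -4.25 and -3.73. Secretory replicate 3 was the lowest of its stage and still above every maturation array, and the difference was -4.65 (SE 0.33). For uc.277+ the arrays read 0.83, 1.49, 1.29, 1.26 and 1.84 in secretion and -3.37, -3.49, -3.25, -3.33 and -2.55 in maturation, a difference of -4.54 (SE 0.57). These 3 probes also stood below the secretory level in the cervical loop, with means of -5.73, -3.28 and -3.36 there.

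Other falls were seen at higher and at lower levels of signal. The probe uc.428+ fell from 3.58 ± 0.36 to 0.07 ± 0.17, uc.414- from 2.10 ± 0.54 to -0.97 ± 0.18, and uc.305- from -0.10 ± 0.14 to -2.49 ± 0.26 (SD, n = 5 each). None of these 3 overlapped between stages. The probe uc.363+ fell from -2.33 ± 0.95 to -5.84 ± 0.67, with 3 maturation arrays well above background. With the scan as a block uc.428+ (-3.44) and uc.363+ (-2.31) lost their calls, while uc.414- (-2.60) and uc.305- (-1.92) kept theirs. Well above background on every secretory array and on 0 maturation arrays were uc.199-, uc.468+ and uc.392-. By processed signal they came out lower by 5.89-fold, 5.79-fold and 4.74-fold at the least. Their normexp-corrected differences were -0.88, -0.81 and -0.77.

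Increases among ultraconserved-element probes were fewer and mostly dim. The probe uc.454- read -6.92, -5.97, -5.96, -6.64 and -6.37 in secretion, with 0 arrays well above background, and -2.83, -3.01, -2.92, -1.88 and -2.11 in maturation. The rise by processed signal was at least 8.83-fold (limma, adjusted p = 8.58e-08), and the difference was 4.17 within scan 2 and 0.84 with normexp correction. The probe uc.6- was well above background on all 10 arrays and read -1.86, -0.76, -0.68, -0.61 and -1.74 in secretion and 0.20, 1.42, 1.27, 1.24 and 0.08 in maturation. Replicates 1 and 5 were low and replicates 2, 3 and 4 high in both stages alike. Its difference was 1.97 (SE 0.32, adjusted p = 8.1e-05), and 1.18 with the scan as a block, where the call was lost. The probes uc.324- and uc.121+ were also measured on all 10 arrays and rose by 1.45 and 1.39.

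The other large increases rested on processed signals near background. For uc.217+ the rise by processed signal was 2.76-fold at the least, and its normexp-corrected difference was 0.08. By processed signal uc.176+ and uc.129- were higher by 1.82-fold and 1.46-fold at the least, and their differences turned to -0.087 and -0.12 with normexp correction. The rise of 1.77 for uc.287+ and of 1.42 for uc.129+, each with 1 secretory array well above background, likewise turned to -0.075 and -0.0731. The rise of 1.36 for uc.403+ came to 0.08 with normexp correction and did not pass there. For comparison, the dimmest 5 percent of all probes differed by -0.37 after that correction.

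Both strands were tested for 104 elements, and both passed the threshold for 35 of them. Both strands were lower for 24 elements, both higher for 4, and the strands moved in opposite directions for 7: uc.46, uc.85, uc.238, uc.287, uc.350, uc.421 and uc.423. The correlation of the differences of + and - probes over the 104 elements was 0.21, as a description of probes that share arrays and a range of dim signals. Of the opposite pairs, uc.46 had both strands well above background on all 10 arrays and none of its ranges overlapped: uc.46- rose from 3.50, 3.56, 3.74, 3.31 and 3.91 to 4.57, 4.28, 4.54, 4.62 and 4.30, and uc.46+ fell from -2.34, -2.27, -2.06, -1.68 and -1.67 to -2.92, -2.75, -2.93, -2.76 and -2.41. The differences were 0.86 (adjusted p = 0.000373) and -0.75 (adjusted p = 0.000752). With the scan as a block both calls were lost, at 0.70 and -0.19. With normexp correction the higher strand of uc.85, uc.238, uc.287, uc.350 and uc.421 turned to a lower one, and that of uc.423 came to 0.039, so that uc.46 was the only pair with clearly opposite signs there (0.91 and -0.57). After that correction the dimmest 5 percent of all probes differed by -0.37 between the stages. The part of this shift in the signs of dim probes was not tested. The lower strands of uc.85 and uc.350 were well above background on 0 arrays of either stage. Leaving out any of 4, 6 or 7 of the 10 arrays ended the call of uc.350-, uc.421+ or uc.421-. The strand opposite to a leading fall moved less: uc.398+ by -0.56, uc.363- by -0.60 and uc.305+ by -0.83, while uc.414+, at 0.08, did not pass.

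**Figure D3:**
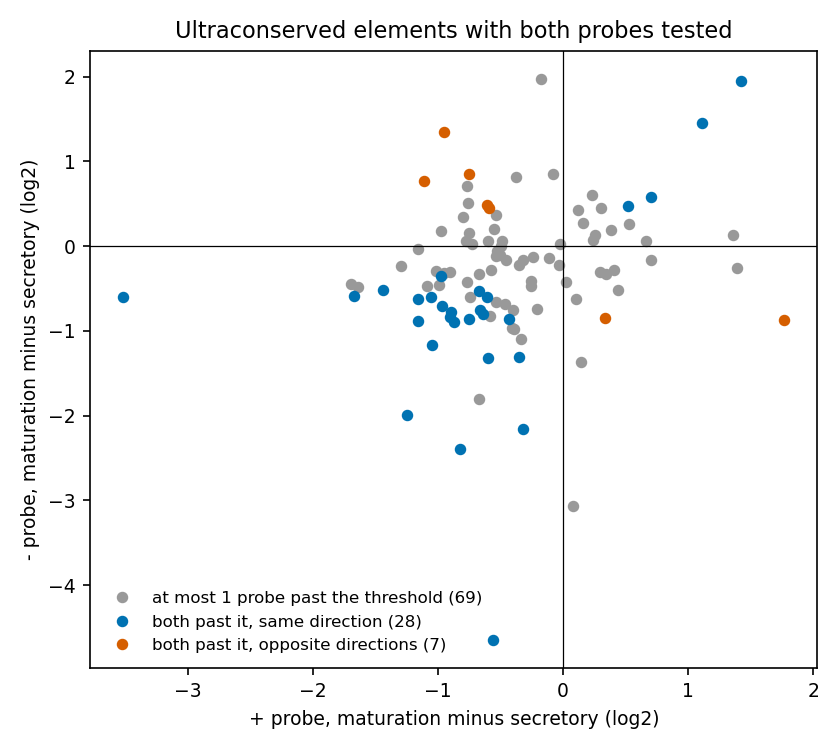
Stage differences (maturation minus secretory, log2) of the + probe (horizontal axis) and the - probe (vertical axis) of the 104 ultraconserved elements with both probes tested, 1 point per element. Both probes passed the threshold in the same direction for 28 elements (blue) and in opposite directions for 7 (orange); most points lie in the lower left, where both strands are lower in maturation.

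With the scan as a block, 37 ultraconserved-element probes were lower and 24 higher (10.7% and 9.49% of all features), among them 37 of the 206 and 13 of the 31 found without the block. Within scan 2, 193 of the 206 lower probes (93.7%) and all 31 higher probes kept their sign, against 95.2% and 98.9% of all features called lower and higher. Here too the arrays of scan 2 are among those that gave the calls.

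The largest differences by processed signal were those of probes with only a maker's identifier, whose transcripts were not identified here. Of 28410 probes with only a maker's identifier, 7183 were higher and 9700 lower, and the counts at 2-fold or more were 2900 and 3500. Over all features, 4321 increases and 6348 decreases were smaller than 2-fold, and 16 increases and 55 decreases reached 6 on the log2 scale. Well above background on all 5 maturation arrays and on 0 secretory arrays were 253 features, and 95 showed the opposite pattern. The lowest normalized signal that was well above background differed too. It ran from -6.87 to -6.05 on the maturation arrays and from -6.09 to -5.47 on the secretory arrays, and its part in these 2 counts was not tested. Higher calls were 42.2% of the total, 49.2% with quantile normalization, 57.8% with median scaling and 30.8% with normexp correction. The median over all features was -0.12 as processed and 0.10 after median scaling, so the balance between higher and lower depends on that choice.

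The largest fall by processed signal was that of ASRNV20023150, which read 5.35, 5.82, 5.11, 5.65 and 5.71 in secretion and -5.74, -5.81, -6.48, -5.72 and -3.32 in maturation. The stages differed by -10.94 (SE 0.89, adjusted p = 6.15e-08), and within scan 2 by -8.75. ASRNV20019268 fell by 10.35, from 6.40, 6.77, 6.33, 3.27 and 6.13 to -5.30, -5.37, -6.06, -5.28 and -0.83. Secretory replicate 4 and maturation replicate 5 stood toward each other, and within scan 2 the difference was -7.33. ASRNV20014739 was at least 178-fold lower by processed signal and well above background on 0 maturation arrays. It read 0.70 to 1.41 in secretion and -8.71 to -8.09 in maturation. ASRNV20015708 fell by 9.40, with 2 maturation arrays well above background, and ASRNV20032789 dropped by 8.77, with all 5. With normexp correction their differences were -5.77 and -6.41.

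By processed signal the largest rise was that of ASRNV20022413, from -8.04, -8.24, -7.77, -5.41 and -7.77 to 1.83, 2.67, 1.11, 1.19 and 0.74. Secretory replicate 4 was the only secretory array well above background. The difference was 8.95 (SE 0.51, adjusted p = 1.34e-09). With normexp correction it came to 4.32, below ASRNV20014000 (6.92) and ASRNV20016834 (5.05), both of which were well above background on all 10 arrays. ASRNV20014000 varied most among secretory arrays, which read -0.13, -1.06, 4.67, 6.47 and 1.50 (SD 3.19), while maturation arrays were level at 9.34, 9.35, 9.32, 9.15 and 8.90 (SD 0.19). All maturation arrays were higher, by 6.92 on average (SE 1.03, adjusted p = 3.75e-05). ASRNV20013773, ASRNV20016834 and ASRNV20022461 rose by 8.29, 7.25 and 6.89, and secretory replicate 4 was the highest of its stage for each. ASRNV20013773 and ASRNV20022461 had 1 secretory array each well above background, and normexp correction brought their differences to 4.11 and 3.48.

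Some arrays stood nearer to the other stage than their fellows did. For each array, the 100 features with the largest rise and the 100 with the largest fall were chosen by the differences on the other 9 arrays. Only the 24654 features well above background on all 10 arrays, the one left out included, could be chosen. The array left out was then set against the other 4 of its stage. Maturation replicate 5 had the features that lead in secretion at a median 0.68 above the other maturation arrays and was the highest of the 5 for 87 of 100; features that lead in maturation were 0.38 lower and lowest for 67. Secretory replicate 4 had the features that lead in maturation 0.50 above the other secretory arrays and was highest for 62, yet its own stage's features were also higher, by 0.40. Secretory replicate 3 had its own stage's features 0.82 lower and lowest for 78. Without maturation replicate 5, 7291 features were at least 2-fold apart, against 6491 with all arrays. It is also the array on which every value within scan 2 rests. The part of these arrays in the results was not tested beyond leaving each one out.

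**Figure D4:**
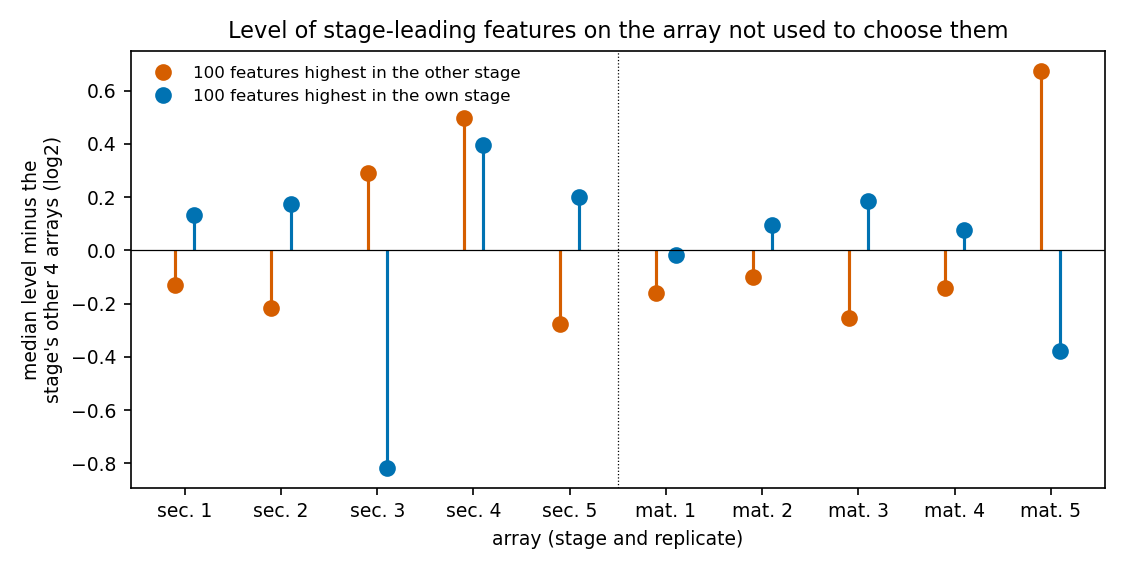
Median level of 100 features that lead in the other stage (orange) and 100 that lead in the own stage (blue) on each of the 10 arrays, minus the level of the stage's other 4 arrays (log2). The features were chosen by the differences on the other 9 arrays, among those well above background on all 10. Maturation replicate 5 (0.68 and -0.38), secretory replicate 3 (0.29 and -0.82) and secretory replicate 4 (0.50 and 0.40) lie farthest from 0.

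Arrays of both stages with the same replicate number had deviations in common. Over 28646 features without a missing value, 32 varied between numbers with an SD of at least 1 over both stages while the stages differed from each other around that pattern with an SD of at most 0.5. All carried only a maker's identifier, as did 28410 of the 28863 features tested. The stage difference passed the threshold for 4, where 59.5% of all features passed. The main fit did not pair the samples, so the spread between numbers by which these features were chosen counts there as spread within a stage. ASRNV20026900 was high only in number 4, at 2.17 in secretion and 2.11 in maturation, and between -4.18 and -3.13 on the other 8 arrays. ASRNV20009029 was low only in number 4, at -2.21 and -3.99, against 4.17 to 6.12 elsewhere. ASRNV20034520 was low only in number 3, at -3.55 and -3.40. In ASRNV20001541, numbers 1 and 2 were low in both stages (-1.97 to -0.57) and numbers 3, 4 and 5 high (5.28 to 6.75). Beyond the filter, cervical loop arrays were not used to choose these features. For 19 of the 32 the number farthest from the median, 1 of 5, was the same there. ASRNV20001541 is not among the 19, although its numbers 1 and 2 were low in the cervical loop too (-0.78 and -1.35). ASRNV20026900 read 2.59 in cervical loop number 4 and -2.79 to -2.43 in the others.

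**Figure D5:**
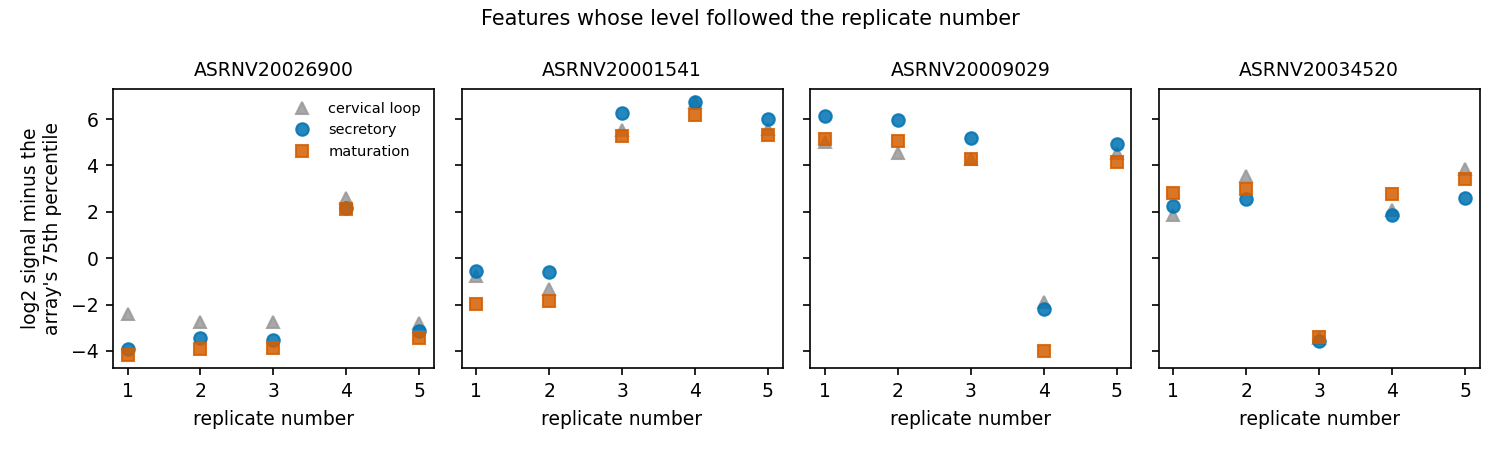
Normalized log2 signal (vertical axis) of 4 features with only a maker's identifier by replicate number (horizontal axis) in secretory, maturation and cervical loop arrays, 1 point per array. In each panel the stages follow the same pattern across numbers, such as number 4 at 2.11 to 2.59 and the other numbers between -4.18 and -2.43 for ASRNV20026900.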

How the data were processed

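The submitters' processing notes name Agilent Feature Extraction 11.0.1.1 for reading the images. The deposited scanner files hold linear intensities per spot, per the file headers: a processed, background-subtracted signal, a median signal, a local background, and other columns of flags. A series table deposited by the authors gives log2 values for 38237 probes, with the same median (5.72) and maximum (18.1) on every array and the direction of the scanner values; the sources used here do not state its normalization. It holds no RefSeq gene and served as an alternative.

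Control spots and flagged outliers were left out, spots were averaged per probe, and log2 of the mean minus the 75th percentile of the array was used; 0 spots were saturated. A probe counted as well above background where 50% of its spots were, and the brightest probe stood for a gene. All 15 arrays were fitted with limma 3.58.1 in R 4.3.3 (lmFit, eBayes), with Benjamini-Hochberg adjustment over 28863 features and a threshold of 0.05; the code was tested on simulated data. Normexp used the median signal and an offset of 50. Same-numbered arrays of both stages deviated together (correlations 0.28, 0.29, 0.226, 0.106 and 0.263). The best match of each maturation array was the secretory array of its own number. The main fit did not pair the samples, so its p-values and intervals leave this out. A fit with the replicate number as a block served as an alternative.

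RefSeq genes were all reported, with full values for the 12 largest increases, 6 largest decreases and list members. Ultraconserved-element probes were the 10 largest in each direction and maker's probes the 5 largest that passed, did not overlap and were measured above background on each array of the brighter stage, with up to 6 opposite-strand pairs. The probe pair uc.85, the unmatched accessions and the features that follow the replicate number were named after their values were seen. The members, lists and tests were chosen with earlier results of these data known. Gene symbols and promoters came from RefSeq tables of assembly GRCr8. Software was Python 3.11.15 with numpy 2.4.6, pandas 2.3.3 and, for plots, matplotlib 3.10.9. Contrasts with the cervical loop were not analysed here.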

Additional observations from a re-analysis of the deposited data

Results flagged for a closer look

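Single arrays far from the others of their stage were looked for in the 5 arrays of each stage for every named feature, 176 groups in all, by the gap to the nearest array over the whole range. The cut-off for this ratio, 0.71, flags by chance about 1 in 20 groups of 5 independent, normally spread values. Many of the features were picked by their values on these same arrays, so that rate need not hold here. The search found 17 values, 9 of them on maturation replicate 5, 2 each on secretory replicates 1, 3 and 4, and 1 each on maturation replicates 2 and 3.

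Maturation replicate 5 lay above the other 4 maturation arrays, toward the secretory level, for ASRNV20019268 (-0.83 against -6.06 to -5.28), ASRNV20023150 (-3.32 against -6.48 to -5.72), uc.305- (-2.04 against -2.72 to -2.56), uc.468+ (-6.50 against -7.47 to -7.19), uc.277+ (-2.55 against -3.49 to -3.25), uc.398+ (-5.57 against -6.14 to -6.01), uc.121- (-3.36 against -3.81 to -3.76) and Cyp2e1 (-6.31 against -7.35 to -7.09). It lay below them for Rpl13a (6.53 against 6.95 to 7.04). This array shared its scan with secretory arrays and not with the other maturation arrays, so array and scan cannot be told apart.

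Secretory replicate 4 stood toward the maturation level for ASRNV20022413 (-5.41 against -8.24 to -7.77) and ASRNV20019268 (3.27 against 6.13 to 6.77). Secretory replicate 3 was low for uc.414- (1.13 against 2.28 to 2.40) and uc.398- (-0.86 against 0.73 to 1.31). Secretory replicate 1 was low for Cyp2e1 (-6.96 against -6.21 to -5.96) and uc.350+ (-7.41 against -6.49 to -6.35), both without a secretory array well above background. Maturation replicate 2 was high for Ptk2b (0.33 against -0.36 to -0.27), and maturation replicate 3 was high for Slc28a2 (1.64 against 1.22 to 1.28).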

How the results depend on the processing

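The totals of features, of features at least 2-fold apart, of RefSeq genes and of ultraconserved-element probes stayed within 1.5 times under quantile normalization, median scaling, the 10 arrays alone and the filter on all 10 arrays. Their direction did not always: 7245 features were higher and 9915 lower, against 9602 and 7017 under median scaling. Ultraconserved-element probes at least 2-fold apart fell from 79 to 46 with quantile normalization, 51 with median scaling, 43 with the filter on all 10 arrays and 17 with normexp correction. With the scan as a block, 5831 features differed, 4197 of them at least 2-fold, with 10 RefSeq genes and 61 ultraconserved-element probes. The arrays of scan 2 alone, with 1 maturation array, gave 3393, 3386, 9 and 30; both alternatives use fewer arrays for the contrast. Normexp correction left 3058 features at least 2-fold apart, and the dimmest 5 percent of probes then differed by -0.37. Without a filter, 504 ultraconserved-element probes passed, more being tested. Leaving out 1 array gave 15643 to 17329 features, 6155 to 7291 at least 2-fold, 19 to 26 RefSeq genes and 212 to 242 ultraconserved-element probes; among the named features 63 calls were lost over all such fits and 0 reversed. The replicate block gave 17559, 6520, 24 and 247, and of the named features only B2m and Odf2l lost their calls; the block in a fit of the 10 arrays alone, chosen after seeing the data, gave 19229. A filter on either stage alone, also added then, gave 16577. The RefSeq genes could not be tested in the authors' table.

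Among called differences named in the text or given here, the sign turned with normexp correction for Nlrp3 (-0.17), Napepld (-0.14), Fgf2 (-0.14), uc.129- (-0.12), uc.176+ (-0.087), uc.287+ (-0.075), uc.129+ (-0.0731), uc.324+ (-0.26), uc.350- (-0.18), uc.238- (-0.16), uc.421- (-0.20) and uc.85+ (-0.21), and for Cyp2e1 with the scan as a block and within scan 2 (0.13 in both). Among those that had not passed it turned with normexp for uc.403- (-0.30), Dlg4 (-0.20), uc.414+ (-0.09), Ppp2r2b (-0.08) and Ndfip1 (0.0055). After normexp correction the dimmest 5 percent of all probes differed by -0.37 between the stages. The cause of these turns was not tested.

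With stages taken from the titles, 0 features, 0 at 2-fold, 0 RefSeq genes and 0 ultraconserved-element probes passed the threshold in limma, and 7326 features, 9 RefSeq genes and 113 ultraconserved-element probes had an unadjusted p under 0.05. By construction 8 of the 10 arrays change sides, and 73 differences turned sign. Among genes and accessions they were D63772 -3.36, XM_340999.3 -2.43, Gdnf -2.39, Enpp1 -2.29, Ptk2b -1.96, Hprt1 -1.28, Ldha -1.33, Pgk1 -0.91, Pld1 -0.67, Nlrp3 -0.80, Cse1l -0.76, Med16 -0.66, Pdcd10 -0.54, Slc28a2 -0.59, Trim2 -0.25, Napepld -0.19, Cdh2 -0.14, Ndfip2 -0.22, B2m -0.42, Odf2l -0.23, Fgf2 -0.27, Sdha -0.19, Pop7 -0.24, Pdk3 -0.24, Magoh -0.22 and Hsp90ab1 -0.17, and Rplp1 0.37 and Cyp2e1 0.69. Among maker's probes they were ASRNV20022413 -5.00, ASRNV20013773 -4.58, ASRNV20016834 -4.25, ASRNV20014000 -3.13 and ASRNV20022461 -3.75, and ASRNV20032789 5.40, ASRNV20015708 5.74, ASRNV20014739 5.72, ASRNV20019268 5.67 and ASRNV20023150 6.50. Among ultraconserved-element probes they were uc.454- -2.19, uc.217+ -1.99, uc.6- -1.15, uc.129- -0.89, uc.176+ -0.69, uc.287+ -0.81, uc.324- -0.76, uc.129+ -0.75, uc.121+ -0.72, uc.403+ -0.89, uc.423- -0.71, uc.324+ -0.89, uc.46- -0.43, uc.350- -0.29, uc.238- -0.14 and uc.421- -0.35, and uc.398+ 0.40, uc.421+ 0.65, uc.363- 0.28, uc.238+ 0.41, uc.46+ 0.52, uc.305+ 0.46, uc.287- 0.86, uc.423+ 0.69, uc.350+ 0.64, uc.305- 1.46, uc.414- 1.73, uc.392- 1.98, uc.468+ 1.93, uc.428+ 2.22, uc.363+ 2.32, uc.199- 2.41, uc.277+ 2.86, uc.398- 2.62 and uc.125- 4.01.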
